A study of Mus musculus with 20 samples.

Results

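The genes described here encode 10 subunits of the enzymes that copy nuclear DNA: Pola1, Pola2, Prim1 and Prim2 of Pol α-primase, Pold1, Pold2 and Pold3 of Pol δ, and Pole, Pole2 and Pole4 of Pol ε. They were chosen by symbol for this function and not for how they moved. All 10 were found among the 13107 genes of the Myc experiment and among the 11210 genes of the HU experiment, and all 10 passed the low-count filter. Transcripts were counted by RNA-seq in p19/Nras cells, a murine liver cancer line from a tumor that Nras induced in a p19/Arf-null mouse, so that every group shares the loss of p19/Arf and the expression of Nras. In the Myc experiment, WT cells (sgCtrl) and the Trim33-KO lines KO1 and KO2 (sgTrim33, made with CRISPR) carried an empty pWZL vector (Ctrl) or a Myc vector, which gives 6 groups and 12 libraries. In the HU experiment, WT (sgCtrl) and Trim33-KO (sgTrim33) cells were left untreated or received 1 mM hydroxyurea (HU), an inhibitor of ribonucleotide reductase, for 4 h, which gives 4 groups and 8 libraries. Every group has 2 libraries, and the labels do not say whether they came from separate cultures, whether a KO line is a single clone, or which KO line was used with HU. The p-values therefore measure the spread between these libraries, which may be technical.

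Replication forks need all 3 enzymes. Pol α-primase lays down a short RNA primer and extends it with DNA, Pol ε then carries leading-strand synthesis together with the helicase, and Pol δ extends the primers of the lagging strand into Okazaki fragments while bound to the PCNA clamp. Many genes of the replication machinery are transcribed around the entry into S phase under E2F factors, and cells exposed to HU run short of deoxynucleotides, which stalls the polymerases. Liver cells in an adult animal rarely replicate their DNA, whereas liver cancer lines do so continuously.

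Promoter windows from RefSeq (build GRCm38.p6) were present for 8 of the 10 genes, and not for Prim2 and Pole. The 250 bases before each start were searched on both strands for the E2F words TTTCCCGC, TTTGGCGC, TTTCGCGC and TTTGCCGC, which 1.86% of all 32851 windows and 3.3% of the 12439 windows of genes tested in the Myc experiment hold. A match was found in 2 of the 8 genes, Pola1 and Pole4, which moved in opposite directions in the KO lines. The shares count windows, of which the 8 genes have 10, and 3 of these held an E2F word. Pole4 accounts for 2 of the 3, with the same word on the same strand at bases -34 to -27 and -43 to -36. The same site may therefore be counted for both of its windows. The E-box CACGTG, the word that Myc binds, was in 6.02% of all windows and 8.16% of those of tested genes, and among the 8 genes only Pola2 held it. These 3 stretches are shown because they carry the words that E2F factors and Myc are known for, each read 5′ to 3′ along the gene, with the matched word in capitals (for both E2F matches, in its reverse complement).
Pola1, chrX:93632256-93632323, minus strand: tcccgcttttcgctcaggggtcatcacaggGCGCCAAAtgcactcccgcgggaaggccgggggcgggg
Pole4, chr6:82652875-82652938, minus strand: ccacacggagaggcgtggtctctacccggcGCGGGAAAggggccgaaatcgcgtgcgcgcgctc
Pola2, chr19:5964392-5964456, minus strand: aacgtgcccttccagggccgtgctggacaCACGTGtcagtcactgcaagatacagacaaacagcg
The word CCAAT lay in the windows of Pola1, Prim1 and Pold2 (33.8% of all windows hold it, and 36.5% of those of tested genes), and TTTGAA or TTCGAA, the words of the cell cycle element CHR, in that of Pold2 alone among the 8 (17.1% and 12.4%). These are matches of letters and not sites of binding.

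A library of the Myc experiment held 14753177 to 17949430 counts and a library of the HU experiment 2315327 to 3082202, so that the same change can be resolved less well with HU. The tables hold 2 of 12 hepatocyte markers each, without Alb, Apoa1, Ttr or Hnf4a, and 3 of 6 epithelial markers (Krt8, Krt18 and Krt19, without Epcam and Cdh1). The mesenchymal markers summed to between 2910 and 4242 CPM (counts scaled to the size of each library with TMM factors) over the 12 libraries of the Myc experiment, and the only endothelial or leukocyte marker in either table, Cd68, reached at most 6.3 CPM. Trim33 mRNA was checked in every library. With the Ctrl vector it was at 245.6 and 258.1 CPM in WT, 123.4 and 130.4 CPM in KO1, and 200.9 and 206.8 CPM in KO2. In the libraries labelled WT Myc it was at 130.7 and 154.7 CPM, below the 185.4 and 192.5 CPM of those labelled KO1 Myc and above the 124.1 and 124.7 CPM of those labelled KO2 Myc. The difference between KO1 Myc and WT Myc therefore runs opposite to that of KO1 and WT with the Ctrl vector (log2FC 0.40, SE 0.0686, adjusted p = 0.000243 in edgeR's quasi-likelihood test). Since KO2 Ctrl kept Trim33 mRNA at 200.9 and 206.8 CPM, this level alone does not tell a KO from a WT library. The paper examined the knockout by immunoblotting, and Trim33 protein was not measured in these libraries. Libraries with the Myc vector are named below only as they are labelled. In Trim33 mRNA the libraries labelled KO2 Myc lay at the level of KO1 Ctrl, and those labelled KO1 Myc nearer to KO2 Ctrl than to KO1 Ctrl. So did 2 identity markers, which were picked after their values were seen. The keratin Krt19 had a mean of 47.7 CPM in KO1 Ctrl and 49.2 CPM in the libraries labelled KO2 Myc, but 115.9 CPM in KO2 Ctrl and 136.7 CPM in those labelled KO1 Myc. The collagen Col3a1 had a mean of 344.0 and 347.8 CPM in the former 2 groups and 41.6 and 37.9 CPM in the latter. Not all markers went this way. Between KO2 Ctrl and KO1 Ctrl, Krt18 and Krt8 were not called (log2FC -0.006 and 0.17). Both were lower in the libraries labelled KO2 Myc than in KO2 Ctrl (-0.64 and -1.01). Asgr1 was lower in KO2 Ctrl than in KO1 Ctrl (-1.37) and was not called between KO2 Myc and KO2 Ctrl (-0.27). In the comparisons within KO1 and within KO2, and in the interactions built on them, a difference between vectors and a difference between lines therefore cannot be told apart. Comparisons of KO with WT among the libraries labelled Myc likewise rest on the label alone for the line. Myc mRNA itself was at 455.9 and 457.6 CPM in the libraries labelled WT Myc against 432.8 and 439.0 CPM in WT Ctrl, a difference that did not pass the test (log2FC 0.07, adjusted p = 0.31 in edgeR's test). It was lower in both KO lines with the Ctrl vector, at 186.4 and 196.4 CPM in KO1 and 210.3 and 218.5 CPM in KO2, than in the libraries of these lines labelled Myc, which lay between 459.4 and 645.8 CPM.

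With the Ctrl vector, most of the polymerase and primase transcripts were more abundant in both Trim33-KO lines than in WT cells. In KO1 8 of the 10 rose and Pole4 fell, and in KO2 7 rose and Pole4 fell, at an adjusted p below 0.01 in edgeR's quasi-likelihood test over all genes. Over all 13107 genes the test called 52.2% in KO1 and 49.9% in KO2. The median log2FC of the 10 genes was 0.51 in KO1 and 0.66 in KO2, beside medians of -0.004 and -0.01 over all genes. In both lines, and in the same direction, 8 of the 10 genes were called (7 higher, and Pole4 lower), as were 38.8% of all genes (18.1% higher). The WT Ctrl libraries serve both comparisons, and DNA replication transcripts had been singled out in these libraries when the study was made, so that the counts are not independent evidence. In bulk RNA, a larger share of cells in S phase and more RNA per cell cannot be told apart. The paper reports that growth and the cell cycle distribution, seen by flow cytometry, were unchanged in untreated KO cells. The share of cells in S phase was not measured in these libraries.

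**Figure D1:**
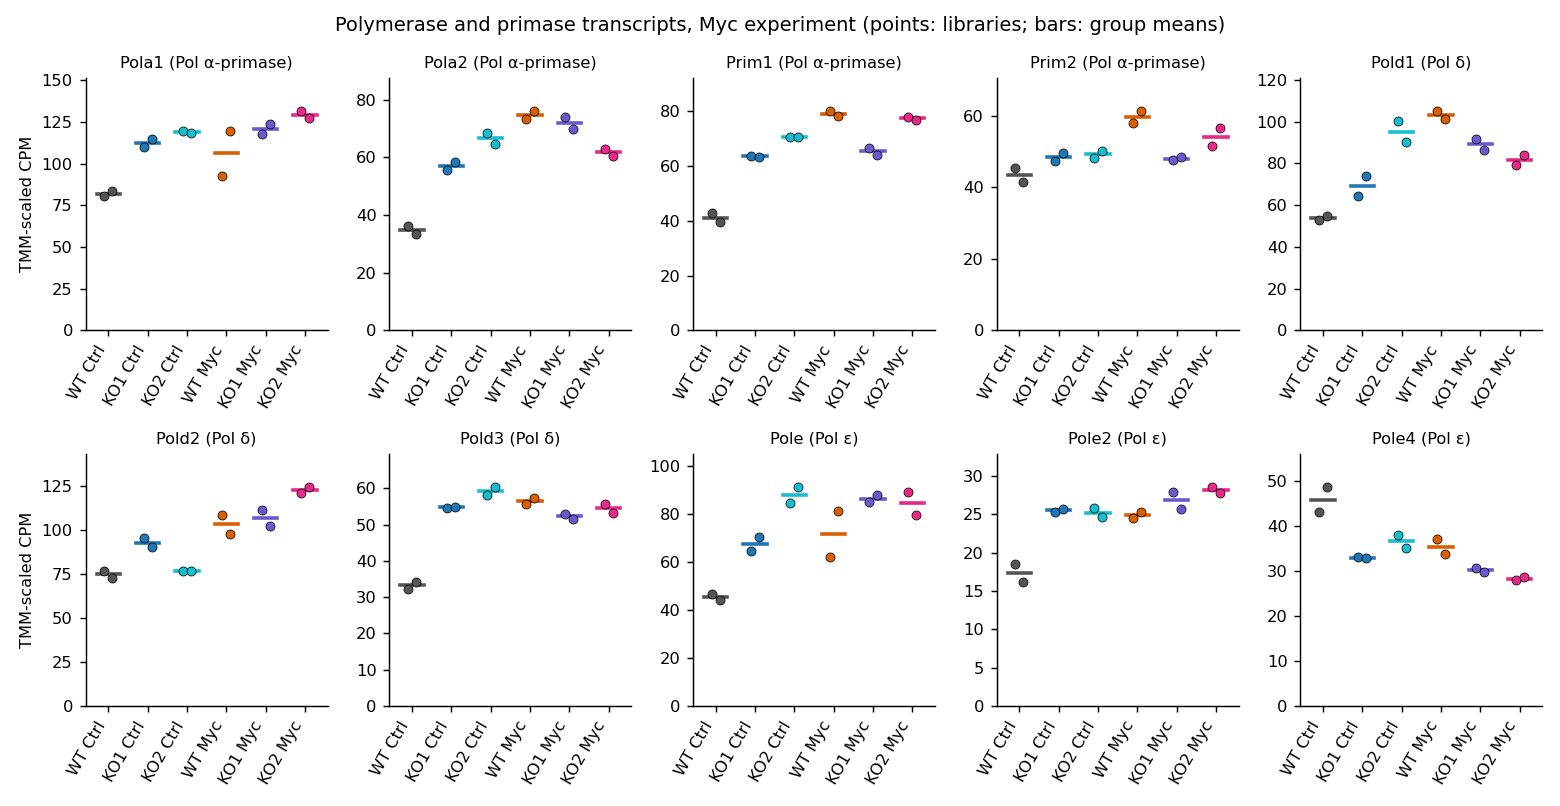
Level of each transcript in TMM-scaled CPM (linear axes from 0) in the 12 libraries of the Myc experiment. Points are libraries and bars are means of 2 libraries. The WT Ctrl libraries were the lowest for every gene except Pold2, where they met KO2 Ctrl, and Pole4, where they were the highest, at 43.1 and 48.7 CPM.

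Of the 4 subunits of Pol α-primase, 3 rose in both KO lines. Pola2, the accessory subunit that holds the complex together, was at 36.1 and 33.6 CPM in WT Ctrl, 55.8 and 58.5 CPM in KO1 Ctrl, and 68.6 and 64.7 CPM in KO2 Ctrl. Prim1, the catalytic primase, was at 42.7 and 39.4 CPM in WT Ctrl, 63.7 and 63.2 CPM in KO1 Ctrl, and 70.7 CPM in both libraries of KO2 Ctrl. For these genes no KO library overlapped the WT libraries, and the log2FC was 0.71 (SE 0.072, adjusted p = 2.75e-07 in edgeR's quasi-likelihood test) and 0.94 (SE 0.0711, adjusted p = 1.21e-08) for Pola2, and 0.63 (SE 0.0647) and 0.78 (SE 0.0642) for Prim1, in KO1 and KO2. Pola1, the subunit with the DNA polymerase activity, was at 80.3 and 83.3 CPM in WT Ctrl, 110.1 and 114.5 CPM in KO1 Ctrl, and 119.5 and 118.5 CPM in KO2 Ctrl. Its rise was smaller on the log2 scale, at 0.46 (SE 0.0872) in KO1 and 0.54 (SE 0.087) in KO2. Prim2, the large primase subunit that helps to start the primer, did not pass the test in either line. Its levels were 45.5 and 41.4 CPM in WT Ctrl, 47.2 and 49.7 CPM in KO1 Ctrl, and 48.2 and 50.2 CPM in KO2 Ctrl, with a log2FC of 0.16 in KO1 (95% interval -0.002 to 0.32) and 0.18 in KO2 (0.02 to 0.34, adjusted p = 0.0484 in edgeR's test). With scaling to library totals alone, Prim2 was called in KO2 (0.26, adjusted p = 0.00727 in edgeR's test). The ratio of Prim1 to Prim2 CPM was 0.938 and 0.952 in the WT Ctrl libraries and between 1.27 and 1.51 in the other 10 libraries, so that the primase subunits did not move in step.

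The subunits of Pol δ differed between the KO lines. Pold3, which carries a PCNA-binding motif and serves in break-induced replication, rose alike in both, from 32.4 and 34.2 CPM in WT Ctrl to 54.5 and 54.9 CPM in KO1 Ctrl and 58.2 and 60.4 CPM in KO2 Ctrl (log2FC 0.72, SE 0.0683, and 0.83, SE 0.0678). Pold1, the catalytic and proofreading subunit, was at 52.8 and 54.8 CPM in WT Ctrl, 64.4 and 74.0 CPM in KO1 Ctrl, and 100.5 and 90.0 CPM in KO2 Ctrl. All KO libraries lay above WT, and the log2FC was 0.36 in KO1 (SE 0.0789, adjusted p = 0.000765 in edgeR's test) but 0.82 in KO2 (SE 0.0773, adjusted p = 1.41e-07). Pold2, the subunit that links the catalytic one to the others, passed the test in KO1 alone, with 77.1 and 73.1 CPM in WT Ctrl, 95.5 and 90.4 CPM in KO1 Ctrl, and 77.0 CPM in both libraries of KO2 Ctrl. Its log2FC was 0.31 in KO1 (SE 0.068, adjusted p = 0.000873 in edgeR's test) but 0.04 in KO2 (95% interval -0.11 to 0.18). The calls of Pold1 and Pold2 in KO1 rested on single libraries. Without the WT Ctrl replicate 1 or the KO1 Ctrl replicate 2, the log2FC of Pold1 was 0.34 or 0.26 (adjusted p = 0.0114 or 0.0245 in edgeR's test), and without the WT Ctrl replicate 2 or the KO1 Ctrl replicate 1, that of Pold2 was 0.27 in both cases (adjusted p = 0.0163 and 0.016).

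The direct comparison of KO2 with KO1 under the Ctrl vector called 3 of the 10 genes, against 18.3% of all genes. Pold1 was higher in KO2 (log2FC 0.46, SE 0.0753, adjusted p = 0.000205 in edgeR's test), as was Pole (0.38, SE 0.0986, adjusted p = 0.00814), and Pold2 was lower (-0.27, SE 0.0675, adjusted p = 0.00614). Only the difference in Pold1 was still called when any of the 4 libraries was left out, and without the KO1 Ctrl replicate 1 those of Pole and Pold2 were 0.32 and -0.23 (adjusted p = 0.0991 and 0.0771 in edgeR's test). The call of Pold2 was also lost in DESeq2 (adjusted p = 0.0125) and with scaling to library totals alone (adjusted p = 0.0111 in edgeR's test), and that of Pole with a filter of 5 CPM in every library (adjusted p = 0.0107). The ratio of Pold1 to Pold2 CPM was 0.686 and 0.749 in WT Ctrl and 0.674 and 0.819 in KO1 Ctrl. Both libraries of KO2 Ctrl lay above these, at 1.31 and 1.17.

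Of the Pol ε subunits, Pole and Pole2 rose and Pole4 fell in both KO lines. Pole, its catalytic subunit, went from 46.4 and 44.2 CPM in WT Ctrl to 64.4 and 70.5 CPM in KO1 Ctrl and 84.5 and 91.1 CPM in KO2 Ctrl, with no overlap between these groups (log2FC 0.57, SE 0.104, and 0.95, SE 0.103, against WT). Pole2, an accessory subunit that joins the enzyme to the helicase, was at 18.5 and 16.2 CPM in WT Ctrl, 25.4 and 25.7 CPM in KO1 Ctrl, and 25.8 and 24.7 CPM in KO2 Ctrl (log2FC 0.56, SE 0.0897, and 0.54, SE 0.0897). Pole4, a histone-fold subunit that pairs with Pole3, was the only one of the 10 to fall, from 43.1 and 48.7 CPM in WT Ctrl to 33.1 and 32.9 CPM in KO1 Ctrl and 38.1 and 35.3 CPM in KO2 Ctrl. The log2FC of Pole4 was -0.48 in KO1 (SE 0.0803, adjusted p = 7.5e-05 in edgeR's test), with -0.33 in KO2 (SE 0.0792, adjusted p = 0.00205). In KO2 its call was lost without the WT Ctrl replicate 2 or the KO2 Ctrl replicate 2 (log2FC -0.23 or -0.27, adjusted p = 0.0478 or 0.0332 in edgeR's test) and with scaling to library totals alone (-0.24, adjusted p = 0.0137). The ratio of Pole to Pole4 CPM, 1.08 and 0.907 in WT Ctrl, was higher in the KO lines, at 1.94 and 2.14 for KO1 Ctrl and at 2.22 and 2.59 for KO2 Ctrl. The counts of Pole could include reads of Gm15792, a processed transcript on the opposite strand that shares 78 exon bases with it, since it is not stated whether counting used the strand.

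**Figure D2:**
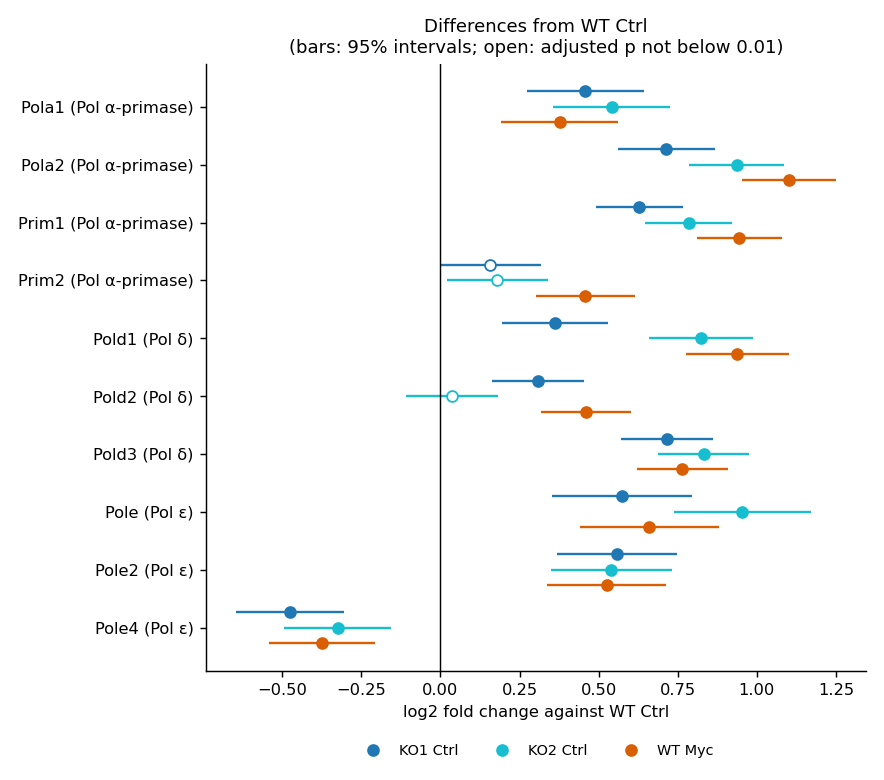
log2 fold change against WT Ctrl for KO1 Ctrl, KO2 Ctrl and the libraries labelled WT Myc, with 95% intervals from the edgeR fit. Filled points had an adjusted p below 0.01. All 3 comparisons use the same WT Ctrl libraries. Prim2 (0.16 and 0.18 in the KO lines) and Pold2 in KO2 (0.04) were not called, and Pole4 lies left of 0 in all 3.

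Per kilobase of transcript, the order of the levels in WT Ctrl was led by Pold2, at 45.6 CPM per kb of its longest coding transcript, and closed by Pole, at 6.33 CPM per kb. With the merged exons as the length these levels were 39.6 and 4.73 CPM per kb, and both genes kept their places among the 10. The order in between depended on the length used, since Prim1 had 25.9 CPM per kb by its longest coding transcript and 10.6 CPM per kb by its merged exons. By the longest coding transcript, Pole4 (24.4 and 27.6 CPM per kb) and Prim1 (24.9 and 27.0 CPM per kb) overlapped, as did Pola1 (15.0 and 15.6 CPM per kb) and Pold1 (15.3 and 15.9 CPM per kb). The annotated genes lie on 9 chromosomes of mm9, and only Pold1 (chr7:51788116-51804219) and Pold3 (chr7:107230621-107270075), both on the minus strand, share one. Pole4 lies at chr6:82568986-82655359 on the minus strand and Pole at chr5:110715325-110766493 on the plus strand.

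The remaining subunits of these enzymes were not called in either KO line with the Ctrl vector. Pold4, the smallest subunit of Pol δ, was at 40.2 and 35.1 CPM in WT Ctrl, 43.4 and 44.4 CPM in KO1 Ctrl, and 32.7 and 34.5 CPM in KO2 Ctrl, and Pole3, the partner of Pole4, was between 25.5 and 30.6 CPM in all 6 libraries. Pold4 was lower in KO2 than in KO1 (log2FC -0.38, SE 0.0834, adjusted p = 0.00229 in edgeR's test). Over all genes the test called 52.2% in KO1 and 49.9% in KO2 in either direction, the shares to set beside the lists that follow. Of 10 partners of the polymerases, 5 rose in KO1 and 6 in KO2, and none fell at this threshold, with medians of 0.27 and 0.35. These include Wdhd1, which ties Pol α-primase to the helicase (log2FC 1.07, SE 0.115, and 1.33, SE 0.113), and Dscc1 (0.65 and 1.01) and Chtf18 (0.45 and 0.79) of an alternative clamp loader that binds Pol ε. Among 15 translesion, repair and mitochondrial polymerases, 4 rose and 1 fell in KO1, and 5 rose and 2 fell in KO2, with medians of 0.17 and 0.12. Polh, which copies past UV lesions, rose by a log2FC of 1.37 (SE 0.11) in KO1 and 1.27 (SE 0.111) in KO2, and Poln fell by 0.92 (SE 0.2) and 0.88 (SE 0.198). Dntt, a polymerase that adds bases without a template in lymphocytes, was at a mean of 25.5 CPM in KO1 Ctrl and 21.1 CPM in KO2 Ctrl, against 0.0342 CPM in WT Ctrl.

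Of 23 other genes of the fork, 16 rose and 3 fell in KO1, and 17 rose and 2 fell in KO2, with medians of 0.62 and 0.80. The nuclease and helicase Dna2 (log2FC 2.22 and 2.04), the helicase subunit Mcm4 (1.12 and 1.52) and the clamp loader subunit Rfc5 (1.01 and 1.18) led the rises. As with Pole4 among the polymerase subunits, some members of complexes fell while others rose. Rpa3, the smallest subunit of the single-strand binding complex RPA, fell in both lines (-0.39, SE 0.1, and -0.46, SE 0.101), as did Rnaseh2a, the catalytic subunit of RNase H2 (-0.58, SE 0.0864, and -0.57, SE 0.0862). Genes of mitosis moved with the polymerase subunits. Of 12 such genes, 10 rose and 1 fell in KO1 and 11 rose in KO2, with medians of 0.46 and 0.69, and Mki67, the proliferation marker, had a log2FC of 1.04 and 1.51. Their summed level was 1607 and 1687 CPM in WT Ctrl, 2296 and 2456 CPM in KO1 Ctrl, and 2908 and 2929 CPM in KO2 Ctrl, and its part in the rise of the polymerase subunits was not tested. Markers of cell identity differed between these groups as well, and not all in the same direction within a list. The 2 hepatocyte markers in the table summed to between 30.8 and 34.3 CPM in WT Ctrl and between 4.79 and 10.6 CPM in the KO lines. Of these, Afp fell in both lines (log2FC -5.19 and -1.92), whereas Asgr1 rose in KO1 (2.27) and was not called in KO2 (0.90). The 3 epithelial markers summed to between 4140 and 4306 CPM in WT Ctrl and between 3174 and 3499 CPM in the KO lines, where Krt18 and Krt19 fell and Krt8 was not called. The 6 mesenchymal markers were at 2916 and 3108 CPM in WT Ctrl, between 4200 and 4242 CPM in KO1 Ctrl, and between 3239 and 3287 CPM in KO2 Ctrl, sums made up mostly of Vim. In KO1 4 of the 6 rose and 1 fell, and in KO2 2 rose and 2 fell. Col3a1 (log2FC 5.87 and 2.82) and Pdgfrb (3.44 and 2.62) rose in both lines, Col1a1 rose in KO1 (1.54) but fell in KO2 (-0.34), and Col1a2 fell in KO2 (-3.03). Des was at 2.12 and 3.08 CPM in WT Ctrl and at most 0.0657 CPM in KO1 Ctrl. The part of these markers in the result was not tested.

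The libraries labelled WT Myc were compared with WT Ctrl, although Myc mRNA did not differ detectably between them. Myc protein, which the paper examined by immunoblotting, was not measured in these libraries. Trim33 mRNA did differ between the 2 groups, with a log2FC of -0.82 (SE 0.0686, adjusted p = 6.98e-08 in edgeR's test). With the Ctrl vector, its log2FC against WT was -0.99 in KO1 and -0.31 in KO2. The part of this Trim33 difference in the values that follow was not tested. All 10 genes were called, 9 higher and Pole4 lower, against 44.3% of all genes, and their median log2FC was 0.59 beside 0.007 over all genes. Pola2 moved the most, to 73.5 and 76.0 CPM (log2FC 1.10, SE 0.0704, adjusted p = 3.9e-09 in edgeR's quasi-likelihood test), followed by Prim1 at 79.9 and 78.1 CPM (0.94, SE 0.0636) and Pold1 at 105.0 and 101.3 CPM (0.94, SE 0.0768). Each of these values lay above every WT Ctrl library and every library of both KO lines with the Ctrl vector. Pold3 reached 55.8 and 57.4 CPM (log2FC 0.76) and Pole2 24.6 and 25.3 CPM (0.52), levels close to those of the KO lines with the Ctrl vector. Prim2, which was not called in the KO lines, was at 58.0 and 61.3 CPM (log2FC 0.46, SE 0.0737, adjusted p = 6.86e-05 in edgeR's test), and Pold2 at 108.8 and 97.9 CPM (0.46, SE 0.0674). Pole4 was at 37.1 and 33.8 CPM (log2FC -0.37, SE 0.0791, adjusted p = 0.000772 in edgeR's test).

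The libraries labelled WT Myc differed from each other for 2 of these genes. Pola1 was at 92.6 and 119.5 CPM and Pole at 62.0 and 81.0 CPM, and their log2FC against WT Ctrl was 0.38 (SE 0.0872, adjusted p = 0.0016 in edgeR's test) and 0.66 (SE 0.104, adjusted p = 5.38e-05). Without the WT Myc replicate 2 the log2FC of Pola1 was 0.18 (adjusted p = 0.0231 in edgeR's test). Its call was also lost without either WT Ctrl library (0.35 and 0.40, adjusted p = 0.0206 and 0.0113) and with only these groups in the fit (0.38, adjusted p = 0.0109), and that of Pole4 without the WT Ctrl replicate 2 (-0.28, adjusted p = 0.023) and with only these groups in the fit (-0.37, adjusted p = 0.0107). Of the partners of the polymerases 7 of 10 rose, of the other fork genes 19 of 23 rose and 1 fell, and of the mitotic genes 7 of 12 rose. The summed level of the mitotic genes was 1975 and 2211 CPM in the libraries labelled WT Myc, and that of the epithelial markers 3047 and 3527 CPM, and the part of either in the result was not tested.

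Between the Myc and the Ctrl vector in KO1, 3 of the 10 genes were called, all higher, against 36.1% of all genes. Pola2 was at 74.2 and 69.8 CPM in the libraries labelled KO1 Myc (log2FC 0.33, SE 0.0667, adjusted p = 0.000605 in edgeR's test), Pold1 at 91.9 and 86.4 CPM (0.36, SE 0.0752) and Pole at 84.7 and 87.9 CPM (0.36, SE 0.0983). The groups did not overlap for any of the 3, which were picked by the test on these same libraries. None of the 3 was called without the KO1 Ctrl replicate 1 (log2FC 0.30, 0.27 and 0.29, adjusted p = 0.0136, 0.0258 and 0.0815 in edgeR's test). The call of Pole was also lost without any of the other 3 libraries, with values from 0.33 to 0.42. Of the mesenchymal markers 5 of 6 fell in this comparison, among them Col3a1 (log2FC -3.18) and Col1a2 (-5.20), while Krt19 rose (1.52), and the part of these markers in the result was not tested.

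In KO2 2 of the 10 were called, against 38.8% of all genes. Pold2 rose from 77.0 CPM in both Ctrl libraries to 121.4 and 124.6 CPM in the libraries labelled KO2 Myc (log2FC 0.68, SE 0.0662, adjusted p = 4.44e-07 in edgeR's test), the highest levels of this gene in the experiment. Pole4 fell to 27.9 and 28.7 CPM (log2FC -0.37, SE 0.0817, adjusted p = 0.00121 in edgeR's test), the lowest levels of this gene. Its call was lost without the KO2 Ctrl replicate 1 or the KO2 Myc replicate 1 (log2FC -0.32 or -0.35, adjusted p = 0.0223 or 0.012). The other 8 genes had values from -0.22 (Pold1, from 100.5 and 90.0 to 79.2 and 83.9 CPM, adjusted p = 0.0186 in edgeR's test) to 0.16 (Pole2, 28.6 and 27.8 CPM in the libraries labelled KO2 Myc). All 3 epithelial markers fell, with a sum of 3438 and 3499 CPM in KO2 Ctrl and of 1910 and 1946 CPM in the libraries labelled KO2 Myc. Of the 6 mesenchymal markers 4 rose and 1 fell, with a log2FC of 3.06 for Col3a1, 2.48 for Col1a2 and 1.82 for Col1a1, and Afp fell (-4.98). The part of these markers in the result was not tested.

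**Figure D3:**
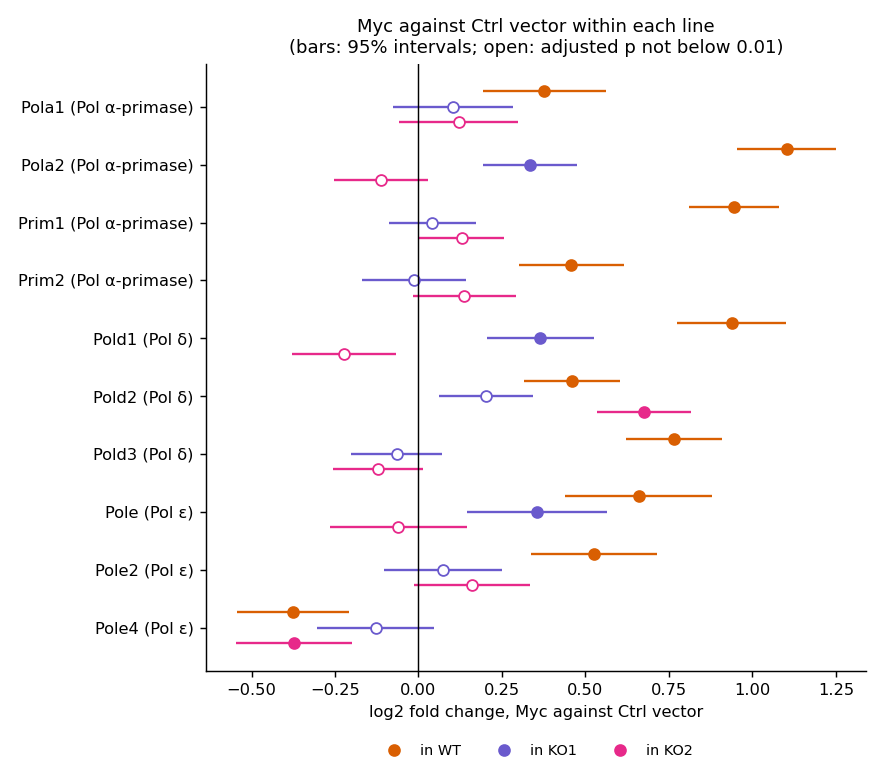
log2 fold change between the Myc and the Ctrl vector within WT, KO1 and KO2, with 95% intervals from the edgeR fit, libraries as labelled. Filled points had an adjusted p below 0.01. All 10 genes were called in WT, 3 in KO1 and 2 in KO2, and the WT points of Pola2, Prim1, Pold1 and Pold3, from 0.76 to 1.10, lie to the right of both KO points.

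The difference between the Myc and the Ctrl vector was itself compared between genotypes. It was smaller in KO1 than in WT for 6 of the 10 genes and larger for 0, against 37.3% of all genes called in either direction, and smaller in KO2 for 5 and larger for 0, against 32.8%. The median of the 10 genes was -0.46 in KO1 and -0.54 in KO2, beside 0.0004 and 0.02 over all genes. Pola2 had an interaction of -0.77 in KO1 (SE 0.0971, adjusted p = 7.39e-06 in edgeR's quasi-likelihood test), with -1.21 in KO2 (SE 0.0968, adjusted p = 5.9e-08). For Prim1 it was -0.90 (SE 0.0884) and -0.82 (SE 0.0875), for Pold1 -0.57 (SE 0.108) and -1.16 (SE 0.107), and for Pold3 -0.83 (SE 0.0936) and -0.89 (SE 0.0929). These 4 genes were called in both lines. In KO1 Prim2 (-0.47, adjusted p = 0.00136 in edgeR's test) and Pole2 (-0.45, adjusted p = 0.00573) were also called, and in KO2 Pole was (-0.72, SE 0.141, adjusted p = 0.000602).

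Both interactions rest on the WT Ctrl libraries, which were the lowest for most of these genes and which the KO comparisons use as well. They also rest on the libraries labelled Myc, where Trim33 mRNA was higher in KO1 than in WT. The call of Pole2 in KO1 was lost without the WT Ctrl replicate 2, either KO1 Ctrl library or the KO1 Myc replicate 2 (log2 values from -0.46 to -0.36), in DESeq2 (-0.45, adjusted p = 0.0292) and with only these groups in the fit (-0.45, adjusted p = 0.0131), and that of Prim2 without the WT Ctrl replicate 2 (-0.40, adjusted p = 0.0117 in edgeR's test). Without the WT Myc replicate 1, 8 genes were called in each line, and in KO2 these include Pold2 in the opposite direction (0.29, adjusted p = 0.00904 in edgeR's test). Of the 23 other fork genes, the same comparison called 2 higher and 14 lower in KO1, and 0 higher and 17 lower in KO2. Of the 12 mitotic genes it called 7 and 9, all lower.

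Among libraries labelled Myc, the levels in KO and WT lay closer together, with KO1, KO2 and WT known here from the labels alone. KO1 Myc against WT Myc called 2 of the 10, both lower, against 25.1% of all genes, namely Prim1 at 66.5 and 64.1 CPM (log2FC -0.27, SE 0.0602, adjusted p = 0.00193 in edgeR's test) and Prim2 at 47.6 and 48.5 CPM (-0.31, SE 0.072, adjusted p = 0.00275). KO2 Myc against WT Myc called 4, against 35.2% of all genes. Pola2 (63.0 and 60.4 CPM, log2FC -0.28), Pold1 (79.2 and 83.9 CPM, -0.34) and Pole4 (-0.32) were lower, and Pold2 was higher (0.25). The median of the 10 genes was -0.08 in KO1 and -0.04 in KO2. Neither call in KO1 held without either KO1 Myc library or with only these groups in the fit, where 0 of the 10 were called. Without the WT Myc replicate 2, Pola1 and Pole were called as higher in KO1 (0.38 and 0.48) and in KO2 (0.48 and 0.44). In KO2 each of the 4 calls was lost without at least 1 of the libraries labelled WT Myc or KO2 Myc, and with only these groups in the fit Pold1 alone was called.

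Across the 12 libraries of the Myc experiment, 9 of the 10 genes varied together and Pole4 went the other way. The correlation of each gene with the mean of the 10 (each scaled to its own mean and SD on the log2 CPM scale, Pole4 included) was 0.981 for Prim1, 0.962 for Pola2, 0.936 for Pold3, 0.926 for Pole2, 0.902 for Pold1, 0.885 for Pole, 0.835 for Pola1, 0.770 for Prim2 and 0.648 for Pold2, and -0.784 for Pole4. Each gene is itself part of this mean. Pairs among the 9 genes had correlations from 0.414 (Pold1 and Pold2) to 0.944 (Pola1 and Pole, the catalytic subunits of different enzymes). The lowest of all pairs was that of Pole4 and Pole2 (-0.914), subunits of the same enzyme. Pole and Pole2, of that enzyme as well, had 0.882. The points share the 6 groups and, for the WT Ctrl libraries, low values of most of the genes. The other genes whose pattern was most like that of the mean, of 10287 ranked with a mean of at least 5 CPM, were Card10 (Pearson's r 0.991), Srsf6 (0.986), the helicase subunit Mcm7 (0.979), Aaas (0.978) and Eno1b (0.9749).

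The HU experiment repeated the comparison of KO with WT in untreated cells, with fewer counts. Trim33 mRNA was at 139.7 and 125.2 CPM in WT and 50.8 and 43.8 CPM in KO (log2FC -1.49, SE 0.156, adjusted p = 3.48e-11 in edgeR's test). Of the 10 genes, 1 was called at an adjusted p below 0.05, against 12% of all genes. Pole2 was at 36.8 and 30.1 CPM in WT (86 and 80 counts) and 20.7 and 13.0 CPM in KO (51 and 39 counts), without overlap, and fell by 0.998 on the log2 scale (SE 0.281, adjusted p = 0.0121 in edgeR's test). Its call was lost in DESeq2 (log2FC -0.997, adjusted p = 0.0511) and without the WT replicate 1 or the KO replicate 2 (-0.85 or -0.68, adjusted p = 0.109 or 0.226 in edgeR's test). Pola1 was at 134.5 and 121.8 CPM in WT and 102.4 and 93.6 CPM in KO, a log2FC of -0.39 that missed the threshold (adjusted p = 0.0633 in edgeR's test) and passed it under 4 of the alternatives tried. Identity markers differed here too. Krt8 (log2FC 0.36) and Krt19 (0.69) were higher in KO, and Col3a1 (-4.76) and Col1a1 (-2.49) lower, so that Krt19 and Col3a1 differed in the opposite direction from both KO lines with the Ctrl vector, and their part in the result was not tested.

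**Figure D4:**
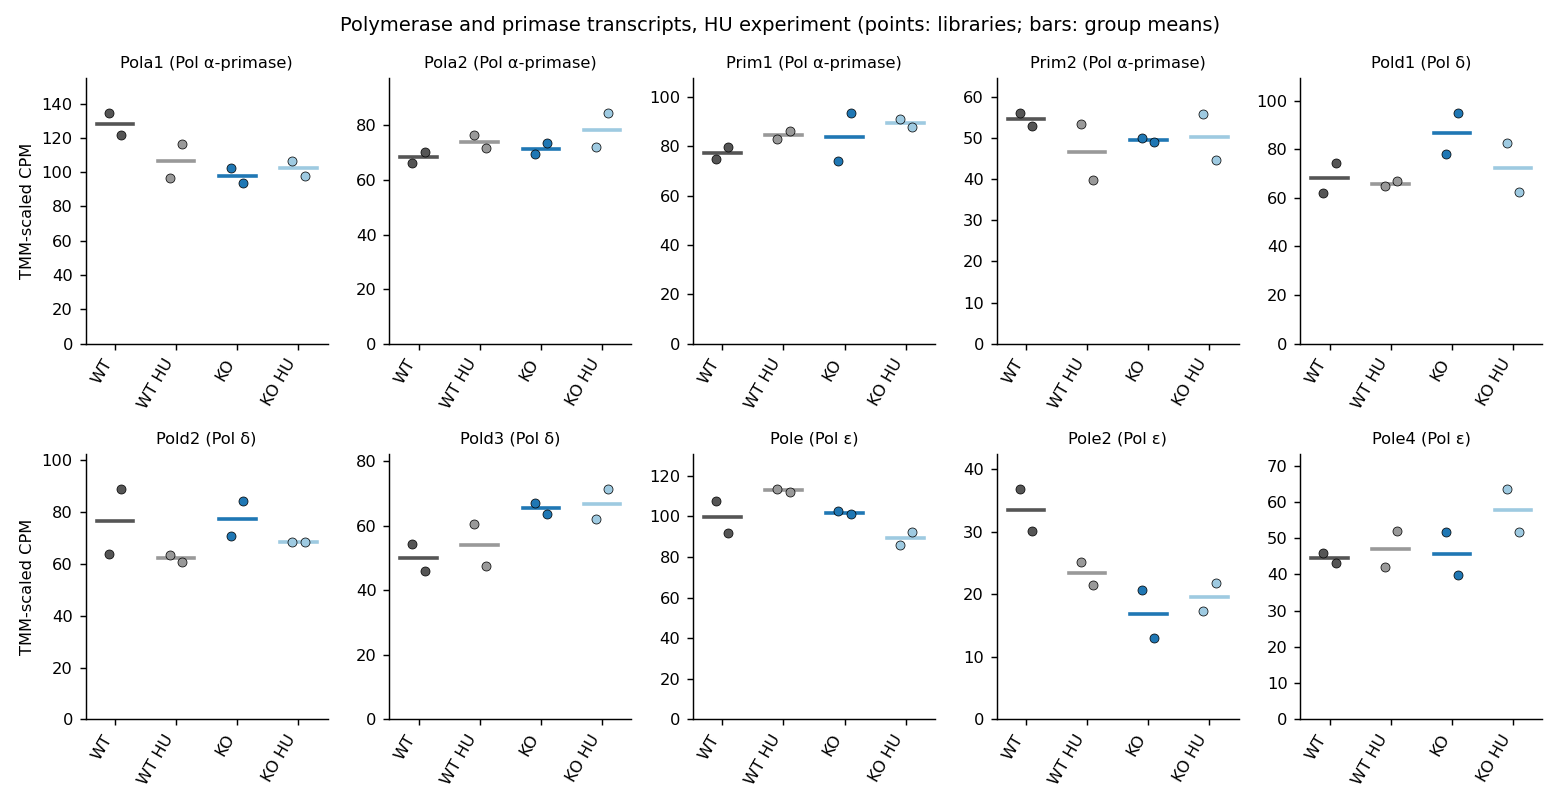
Level of each transcript in TMM-scaled CPM (linear axes from 0) in the 8 libraries of the HU experiment. Points are libraries and bars are means of 2 libraries. Pole2 lay at 36.8 and 30.1 CPM in WT and at 20.7 and 13.0 CPM in KO, and no other gene was called in any of the comparisons.

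The 7 genes that rose in both KO lines of the Myc experiment had these values in the HU experiment, whose table was normalized separately and whose difference from the Myc experiment was not tested. Pold3 was at 54.4 and 45.9 CPM in WT and 67.1 and 63.8 CPM in KO (log2FC 0.39, 95% interval 0.02 to 0.75, adjusted p = 0.178 in edgeR's test), and Pold1 at 62.1 and 74.4 CPM in WT and 78.1 and 94.9 CPM in KO (0.34, 0.01 to 0.68, adjusted p = 0.195). In both cases the KO libraries were the higher ones. For Pola2 the log2FC was 0.07 (-0.27 to 0.40), for Prim1 0.12 (-0.20 to 0.44) and for Pole 0.03 (-0.26 to 0.32), intervals that do not reach the 0.71, 0.63 and 0.57 of these genes in KO1 Ctrl. The intervals of Pola1 (-0.67 to -0.10) and Pole2 (-1.56 to -0.44) lie below 0. Pole4 was at 45.8 and 43.2 CPM in WT and 51.6 and 39.8 CPM in KO (log2FC 0.03, -0.37 to 0.44). The labels do not name the KO line of this experiment, so that its values cannot be set against those of the same line. Of the other fork genes 1 of 23 was called higher and 1 lower, and of the mitotic genes 1 of 12 was called higher, with summed levels of 3132 and 3517 CPM in WT and 3372 and 3726 CPM in KO.

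Treatment with HU called 0 of the 10 genes in WT, against 9.83% of all genes, and 0 in KO, against 6.45%, in edgeR's test. At an unadjusted p below 0.05 the count was also 0 in both, and DESeq2 called 0 in both. The largest differences in WT were those of Pole2, which was at 25.1 and 21.5 CPM with HU (log2FC -0.52, 95% interval -1.05 to 0.02), Pold2 at 63.6 and 61.0 CPM against 63.8 and 89.1 CPM untreated (-0.30, -0.64 to 0.04), and Pola1 at 96.4 and 116.4 CPM (-0.27, -0.55 to 0.01). In KO they were those of Pole4, at 63.6 and 51.8 CPM with HU against 51.6 and 39.8 CPM untreated (0.35, -0.05 to 0.74), and Pold1, at 82.4 and 62.4 CPM against 78.1 and 94.9 CPM (-0.26, -0.59 to 0.08). In WT no treated library overlapped the untreated ones for Pole2 or Pola1, the nearest libraries of Pold2 in WT and of Pole4 in KO were almost level, and the groups overlapped for Pold1 in KO. By the order of 2 and 2 libraries alone, a lack of overlap has a probability of 0.333. Its share over all genes was not counted. Every interval of the 10 genes includes 0 in both genotypes, and differences within these intervals were not detectable at this depth. Over all 8 libraries Pola2 ranged from 66.4 to 84.6 CPM, Prim1 from 74.0 to 93.6 CPM and Prim2 from 39.8 to 56.1 CPM.

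The difference made by HU was not called as unlike between KO and WT for any of the 10, against 0.0714% of all genes, at an unadjusted p below 0.05 or in DESeq2 either. The largest interaction was that of Pole2 (0.74, SE 0.397, adjusted p = 0.933 in edgeR's test), which was at 17.3 and 21.7 CPM in KO with HU. Under HU, KO against WT called 0 of the 10, against 11% of all genes, and 1 of the 10 had an unadjusted p below 0.05. This was Pole, at 85.9 and 92.5 CPM in KO and 113.6 and 112.2 CPM in WT (log2FC -0.34, SE 0.143, adjusted p = 0.117 in edgeR's test), and DESeq2 called 0 as well. In the same libraries 8 of the 12 mitotic genes fell with HU in WT and 8 fell in KO, with medians of -0.56 and -0.48, and their summed level went from 3132 and 3517 to between 2624 and 2654 CPM in WT and from 3372 and 3726 to between 2528 and 2751 CPM in KO. The other fork genes behaved like the polymerase subunits in number, with 0 of 23 called in WT and 1 called higher in KO.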

How the data were processed

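The authors mapped reads to mm9 with STAR 2.5.4 and deposited whole-number counts of reads per gene, with symbol and Entrez identifier, in a table for each experiment. The counting tool, annotation and filter are not given in the sources used here, and the RNA-seq kits are named differently in the labels (TRIzol, NEBNext Ultra II) and the methods. The name of the Myc table calls its values normalized, but they are whole numbers with unequal totals. Of the counts deposited for HU, 71.9% of those from 1 to 50 are even (48.4% in the Myc experiment), and halved counts were therefore an alternative. Tables of the authors' own edgeR 3.26.8 comparisons (fold changes and p-values) were not used.

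The fits were made in R 4.3.3 with edgeR 4.0.16 (limma 3.58.1), separately for each experiment and with all its libraries, from TMM factors of 0.958 to 1.019 and 0.982 to 1.02 and a coefficient for each group (glmQLFit, glmQLFTest). The filter filterByExpr removed 0 genes. P-values were adjusted by Benjamini and Hochberg over all genes tested, and genes were called below 0.01 (Myc experiment) or 0.05 (HU experiment), the thresholds of the study. SE is the log2FC divided by the root of the F statistic, and 95% intervals use the t distribution of the fit. The common biological coefficient of variation was 0.0498 and 0.102. Simulated counts were used to test the scripts. With 2 libraries a group, an exact permutation test cannot go below 0.333, and the p-values borrow spread from other genes through edgeR. Where groups are said not to overlap, the share of all genes for which this holds was not counted. The spread of replicate libraries exceeded counting noise in all groups, at 2.17 to 10.8 times (Myc, the highest in the libraries labelled WT Myc) and 2.22 to 4.46 times (HU). CPM are scaled by TMM. Lengths and positions come from the GENCODE annotation of mm9, and promoter windows from RefSeq on GRCm38.p6.

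The 10 genes and the lists were chosen with earlier results of these data known. Named besides the 10 are Trim33 and Myc, the remaining subunits, in each list up to 3 genes with the largest mean change of those called in both KO lines and any called against the direction of most, and the 5 genes most like the mean pattern. Alternatives were RLE size factors, library totals, no filter, 5 CPM in every library, DESeq2 1.42.0, only the groups compared, a replicate block, halved HU counts, and each library left out.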

Additional observations from a re-analysis of the deposited data

Results flagged for a closer look

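Between the KO lines under the Ctrl vector, the direct comparison of KO2 with KO1 differed for Pold1 (log2FC 0.46), Pole (0.38) and Pold2 (-0.27), although both lines carry sgTrim33. Pold1 and Pole were higher, and Pold2 lower, in both KO2 libraries than in both KO1 libraries, which are the libraries that the test used. The calls of Pole and Pold2 were lost when any of the 4 libraries was left out.

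The difference between the Myc and the Ctrl vector was unlike between KO1 and WT, by the test of the interaction, for Prim1 (-0.90), Pold3 (-0.83), Pola2 (-0.77), Pold1 (-0.57), Prim2 (-0.47) and Pole2 (-0.45). Between KO2 and WT it was unlike for Pola2 (-1.21), Pold1 (-1.16), Pold3 (-0.89), Prim1 (-0.82) and Pole (-0.72). All 11 values are below 0, and all use the same WT Ctrl libraries and the libraries labelled WT Myc. Since the levels of Trim33, Krt19 and Col3a1 in the KO libraries with the Myc vector lay nearer to those of the other KO line with the Ctrl vector, differences between vectors and between lines cannot be told apart in these values.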

How the results depend on the processing

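Of the 53 calls of the 10 genes over the 15 comparisons, 0 changed direction under any alternative, and 60 of their 628 recomputed values missed the threshold. The replicate numbers were not treated as pairs in the main fits. Deviations of same-numbered libraries from their group means had correlations of -0.356 to 0.485 (median 0.0519) between groups of the Myc experiment. In the HU experiment these were -0.0241 to 0.0875. Both extremes of the Myc experiment involve the libraries labelled WT Myc, so that these values do not decide whether the numbers pair the samples. With a replicate block, KO against WT untreated in the HU experiment called 2 of the 10 instead of 1, and KO2 Myc against WT Myc 5 instead of 4. The former comparison also gave 2 with library totals, with the 5 CPM filter and with halved counts (Pola1 added), and 0 in DESeq2. With only the groups compared in the fit, KO1 Myc against WT Myc called 0 (2 in the fit of all libraries) and KO2 Myc against WT Myc 1 (4).

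With a library left out, its group keeps a lone library that is assumed to vary like the other groups. In these fits the count of the 10 called was 1 throughout for KO2 against KO1 (3 with all libraries), 0 to 2 for Myc in KO1 (3), 1 to 2 for Myc in KO2 (2), 0 to 4 for KO1 Myc against WT Myc (2), 1 to 5 for KO2 Myc against WT Myc (4), 4 to 8 for the interaction in KO1 (6), 5 to 8 for that in KO2 (5), and 0 to 1 for KO against WT untreated in the HU experiment (1). Over all genes, the counts that moved by over 1.5 times under settings that keep every library were KO2 against KO1 (2398 called, 1585 with the 5 CPM filter, 4029 with only these groups), KO1 Myc against WT Myc (3291, 1541 with only these groups), KO2 Myc against WT Myc (4614, 2775), HU in WT (1102, 727 in DESeq2), HU in KO (723, 456 in DESeq2), KO against WT untreated (1349, 751 in DESeq2), KO against WT under HU (1233, 736 in DESeq2, 1893 with only these groups) and the HU interaction (8, 5 in DESeq2). With a library left out, these counts were 1383 to 1475 for KO2 against KO1, 1906 to 4321 for KO1 Myc against WT Myc, 553 to 933 for HU in WT, 389 to 542 for HU in KO, 794 to 972 for KO against WT untreated, 518 to 680 for KO against WT under HU, and 0 to 20 for the HU interaction. The cause of these changes was not tested.

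Uncalled values near 0 changed sign. Under library totals these were Pole2 in KO2 against KO1 (0.012), Prim2 for Myc in KO1 (0.0065), and Pold2, Pole and Pole4 in KO against WT untreated (-0.027, -0.012 and -0.013). With halved counts Pold2 gave -0.0038 there. The KO2 interaction of Pole4 was -0.0013 with RLE size factors, -0.092 with library totals, -0.039 with the 5 CPM filter, -0.0020 in DESeq2 and -0.0039 with only these groups.

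With a library left out, the values that changed sign had these ranges on the log2 scale. In the Myc experiment they were Pold2 (-0.0017 to 0.075) for KO2 against WT with the Ctrl vector, Prim2 (-0.014 to 0.059) and Pole2 (-0.050 to 0.016) for KO2 against KO1, Prim2 (-0.049 to 0.024) for Myc in KO1, Pole (-0.14 to 0.019) for Myc in KO2, Pold2 (-0.024 to 0.13) for KO1 Myc against WT Myc and Pole4 (-0.091 to 0.087) for the KO2 interaction. For HU in WT they were Pold3 (-0.076 to 0.27), Pold1 (-0.19 to 0.070) and Pole4 (-0.083 to 0.22). For HU in KO they were Prim1 (-0.055 to 0.27), Prim2 (-0.15 to 0.17), Pola1 (-0.0086 to 0.14), Pold3 (-0.072 to 0.13) and Pole2 (-0.1 to 0.59). For KO against WT untreated they were Pold2 (-0.20 to 0.28), Pole4 (-0.18 to 0.22), Pole (-0.088 to 0.15) and Prim1 (-0.061 to 0.26). For KO against WT under HU they were Prim2 (-0.086 to 0.34), Pold1 (-0.077 to 0.32), Pola1 (-0.18 to 0.088) and Pola2 (-0.038 to 0.19). For the HU interaction they were Prim1 (-0.17 to 0.15), Pola2 (-0.10 to 0.13), Pold3 (-0.24 to 0.11) and Pold2 (-0.13 to 0.34).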
